A study of Mus musculus with 6 samples.

Results

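The genes described here are 8 of the 33697 genes counted in 6 single-cell RNA libraries of the mouse gut: Il33, Il1rl1, Il1rap, Il7, Il7r, Crlf2, Il15 and Il18. They were picked by name, as cytokines that tissue cells release to lymphocytes and as receptor chains that detect them, and each matched 1 row of the deposited gene lists. The cells were live tdTomato+ lamina propria cells sorted from adult Flare-TSLP mice, reporter animals on a C57BL/6 background in which tdTomato is read from the Tslp locus. The proximal small intestine (proximal jejunum) and the distal small intestine (distal ileum) gave 2 libraries each, and the cecum and the large intestine gave 1 each. All groups shared the reporter allele and a chow diet fed freely. The study describes a preparation of the small intestine in which Peyer's patches and the epithelial fraction were taken off first. It gives no separate preparation for the cecum or large intestine. No wild-type or unsorted library was used here, so every level is that of cells that passed the tdTomato gate. The tdTomato transcript itself was found in fibroblasts (2603 UMIs) and LECs (260 UMIs), but the blood endothelial, glia, T/ILC, B or plasma cell and epithelial gates had 0 UMIs of it in the libraries with at least 20 cells. Those 0 counts allow up to 0.290, 4.25, 1.63, 0.259 and 2.27 UMIs per 1000000, against 4.13 in fibroblasts. Such cells are described here although the study's own filter was set to take out clusters lacking the transcript. By flow cytometry the study reported tdTomato+ cells with CD45, its gate for hematopoietic cells, as rare and limited to CD31+ endothelial cells. Whether the leukocyte gates hold reporter-positive cells was not tested. Each library pooled 3 hashtags, and no table used here pairs hashtags with mice. The replicate 2 libraries of the small intestine held a different set of hashtags from the remaining 4 libraries, which shared theirs. A library was therefore counted as 1 sample, and the p-values measure the spread between libraries, which may be in part technical.

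IL-33 is kept in the nucleus of stromal and endothelial cells and is released on damage. It is detected by a receptor made of ST2, encoded by Il1rl1, and the accessory chain encoded by Il1rap, which is also used by the IL-1 receptor. IL-7, which lymphocytes need to survive, binds the chain encoded by Il7r together with the common gamma chain Il2rg. The same Il7r chain pairs with the product of Crlf2 to form the receptor of TSLP, the epithelial and stromal cytokine whose reporter was used for the sort. IL-15 is shown to lymphocytes on its own receptor chain Il15ra, and IL-18 is made as a precursor that caspase-1 (Casp1) cuts, and the product of Il18bp binds the cut form. Group 2 innate lymphoid cells (ILC2s) are known to carry the receptors for IL-33, TSLP and IL-7.

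On the mouse assembly GRCm39 the genes lie on separate chromosomes, and all 8 are annotated as protein-coding. Il33 spans chromosome 19, 29902483 to 29938933, on the plus strand. Il1rl1 lies at 40468730 to 40504575 of chromosome 1 and Il1rap at 26400350 to 26548880 of chromosome 16, both on the plus strand. Il7 occupies 7635054 to 7678825 of chromosome 3 on the minus strand, and Il7r occupies 9505874 to 9530262 of chromosome 15, also on the minus strand. Crlf2 covers 109702571 to 109706990 of chromosome 5 on the minus strand. Il15 runs from 83054226 to 83129874 on the minus strand of chromosome 8, and Il18 from 50466081 to 50493633 on the plus strand of chromosome 9. All but Il1rl1 and Il7r overlap an annotated gene on the other strand, and Il1rap also overlaps Gm60483 on its own strand, so part of the Il1rap count is uncertain. A count per gene cannot separate the membrane-bound and soluble forms of ST2.

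Cells with 1000 to 7500 genes and 2500 to 40000 UMIs (molecules counted once each) were kept, which left 93558 after doublet removal. The 6 libraries held 109675337 to 206827504 UMIs, with a median of 6606.5 to 9233 UMIs in a kept cell. Cells were gated from lists of marker genes, none of which is one of the 8 genes, and 97.4% of the cells fell into a gate. The fibroblast gate held 71280 cells, the lymphatic endothelial (LEC) gate 15461, the blood endothelial gate 1329 and the T cell and innate lymphoid (T/ILC) gate 360. Within the fibroblast gate, 57.4% of cells passed 1 of 4 subset gates. These are trophocytes (deep Grem1+ fibroblasts around crypts), telocytes (Foxl1+ cells under the epithelium), lamina propria fibroblasts (Adamdec1+) and universal fibroblasts (Pi16+ Dpp4+). The subset gates are ranges rather than sharp types, since 13436 cells lay within 0.1 of the limit of the trophocyte gate and 1442 within 0.1 of that of the telocyte gate. The lamina propria gate had 4448 such cells. The universal gate had 2966, more than the 2007 cells it held. Every marker of a gate's own list was detected in it, and no cell fell into the mast cell gate. Levels are given as UMIs per 1000000 UMIs of a gate in a library (CPM), for libraries with at least 20 cells in the gate. Barcodes of free RNA (at most 100 UMIs) held all 8 genes, from 0.493 to 11.6 CPM of Il7r to 82.0 to 247 CPM of Il33. Any 2 libraries shared between 36 and 100 cell barcodes.

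**Figure D1:**
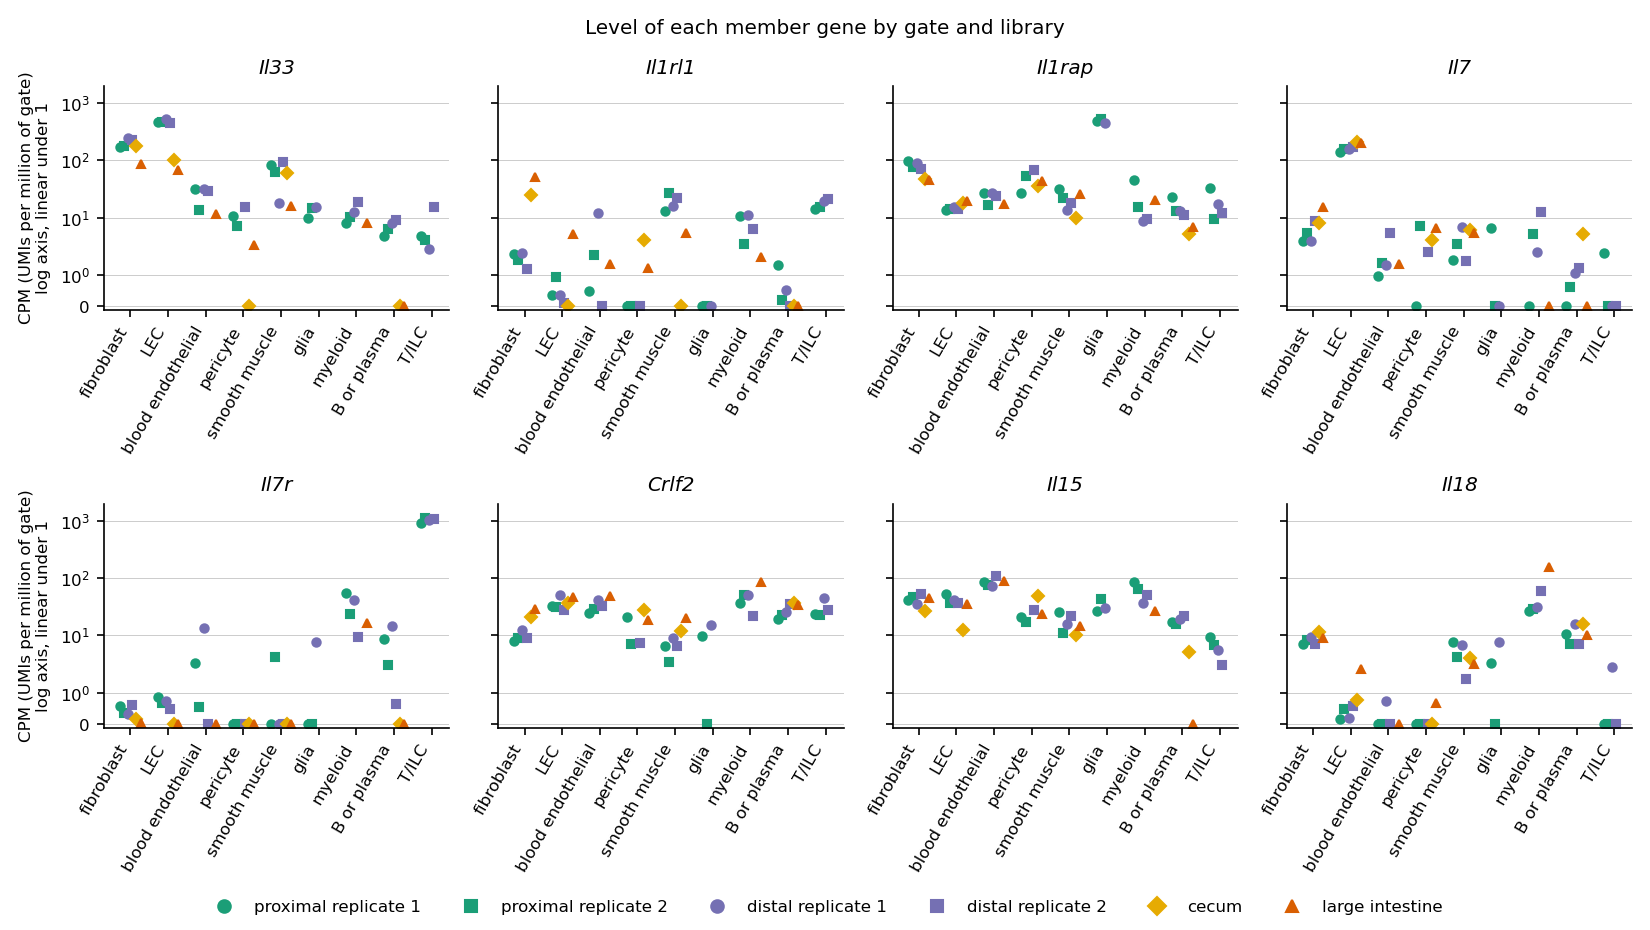
Level of each gene in 9 gates (horizontal axis) in UMIs per 1000000 (CPM, vertical axis, logarithmic above 1 and linear below), 1 point per library with at least 20 cells, colored by region. Il7 stood at 142 to 210 CPM in the LEC gate and Il7r at 912 to 1130 CPM in the T/ILC gate, each above every other gate, while Il33 was shared by the LEC and fibroblast gates.

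Il33 was read mainly from 2 stromal classes. Of its 165208 UMIs in gated cells, 70.6% lay in the fibroblast gate, which held 78.3% of cells, and 28.8% in the LEC gate, which held 17.0%. In single libraries the fibroblast share ran from 49.5% to 99.0% and the LEC share from 0.810% to 50.0%. Values of single libraries are given in the order proximal replicates 1 and 2, distal replicates 1 and 2, cecum, large intestine. Il33 stood at 477, 461, 522, 446, 101 and 67.0 CPM in the LEC gate and at 171, 180, 245, 229, 179 and 85.5 CPM in the fibroblast gate. LECs were thus above fibroblasts in the 4 small intestinal libraries and below them in both large bowel libraries. Over all 6 libraries the log2 difference of the LEC and fibroblast gates was 0.68 ± 0.34 (SE) and was not called (adjusted p = 0.106, edgeR quasi-likelihood test with library as a block and Benjamini-Hochberg adjustment). It was called without the cecum (0.97, adjusted p = 0.0145) or without the large intestine (0.89, adjusted p = 0.0461), which are the libraries where LECs were below fibroblasts, and by limma-voom over all 6 libraries (0.93, adjusted p = 0.0154).

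Other gates held less Il33. The blood endothelial gate reached 23.3 ± 9.84 CPM (SD, n = 5), which was below the LEC gate in 5 of 5 libraries (log2 difference -3.93 ± 0.23, adjusted p = 7.60e-07). The smooth muscle gate held 55.6 ± 32.5 CPM (n = 6), the glia gate 13.3 ± 2.91 (n = 3), the myeloid gate 11.6 ± 4.46 (n = 5) and the pericyte gate 7.20 ± 5.90 (n = 5). The T/ILC gate held 6.69 ± 5.70 CPM (n = 4), below the lowest free RNA level of 82.0 CPM. Ordered by mean, with blood endothelium between smooth muscle and glia, each of these gates overlapped its neighbor. The smooth muscle gate (15.9 to 93.6 CPM) did not overlap the glia gate (9.94 to 15.3 CPM).

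Il33 in lymphatic endothelium differed between regions, and the difference remained called on leaving out each library in turn. Without the cecum or the large intestine the large bowel is 1 library, assumed in the fit to vary like the small intestinal ones, here and in the comparisons that follow. Il33 in LECs averaged 84.1 ± 24.2 CPM in the 2 large bowel libraries against 477 ± 32.7 in the 4 small intestinal ones (log2 difference -2.55 ± 0.20, adjusted p = 4.61e-05), and the groups did not overlap. The large bowel values rest on 130 and 155 UMIs, with exact 95% counting intervals of 84.5 to 120 CPM in the cecum and 56.8 to 78.4 CPM in the large intestine. Both lie below the free RNA of their own libraries, which held 156 and 82.0 CPM of Il33. The small intestinal values lie above theirs, which was 171 to 247 CPM. After every cell was thinned to 2500 UMIs, between 59.9% and 68.5% of LECs of a small intestinal library carried an Il33 UMI, against 19.2% and 14.8% in the cecal and large intestinal libraries. Genes called in this comparison made up 21.3% of those tested, and 1 of the 6 genes of the set that were tested was called. Other features of the LEC gate moved with region too. Ccl21a, the lymphatic chemokine that draws CCR7+ cells, stood at 2239 to 3991 CPM in the small intestine and at 11002 and 11144 CPM in the cecum and large intestine. Reln, a secreted matrix protein, stood at 4186 to 4882 and at 2045 and 1969 CPM. The summed T/ILC list in the LEC gate was 16.3 to 24.3 CPM in the small intestine and 66.1 to 73.9 in the large bowel, with 6 of its 11 markers at 0 there, and the summed fibroblast list was 510 to 963 and 894 to 1117 CPM. The summed pericyte list was lower where Il33 was lower, at 225 to 286 CPM in the small intestine and 33.7 to 56.8 in the large bowel. The part of these features in the Il33 difference was not tested.

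The LEC gate was then divided at 5000 CPM of Ccl21a per cell. Cells below that level made up 72.3% to 96.1% of LECs in a small intestinal library, 14.0% in that of the cecum and 17.1% in that of the large intestine. Among these Ccl21a-low cells Il33 stood at 475, 464, 511 and 446 CPM in the small intestine, 170 in the 32 cells of the cecum and 68.1 in the 45 cells of the large intestine (log2 difference -2.22, adjusted p = 0.000843). Among Ccl21a-high cells it stood at 502, 428, 552 and 438 CPM against 85.7 and 66.7 (log2 difference -2.63, adjusted p = 6.79e-07). Il33 was lower in the large bowel in both parts of the gate. The Ccl21a-low values of the cecum and large intestine rest on 40 and 28 UMIs. Free RNA of those libraries held 156 and 82.0 CPM of Il33. A single cut does not make Ccl21a equal between regions within a part, so the part of Ccl21a in the difference was not tested.

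**Figure D2:**
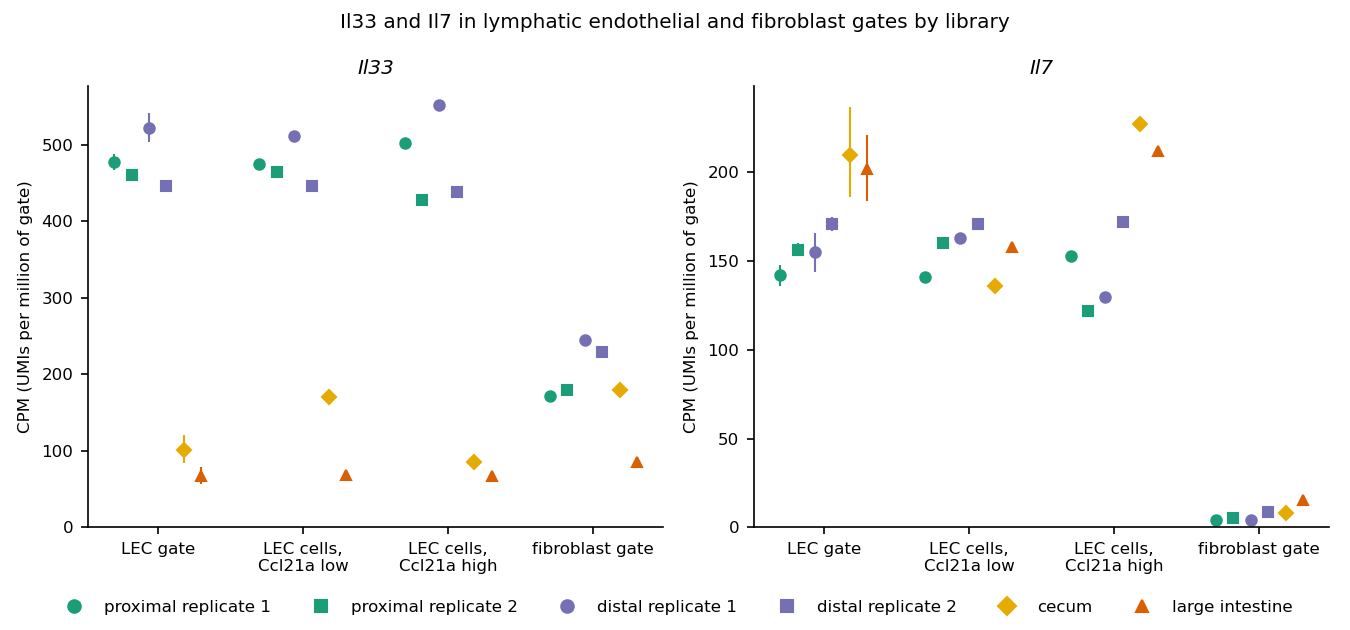
Il33 (left) and Il7 (right) in CPM (vertical axis, linear from 0) in the LEC gate, in its cells below and above 5000 CPM of Ccl21a, and in the fibroblast gate, 1 point per library, with exact 95% counting intervals for the whole gates. Il33 in LECs of the cecum and large intestine (101 and 67.0 CPM) lay below all small intestinal libraries (446 to 522), while Il7 in the whole LEC gate was 142 to 210 CPM.

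Among fibroblasts, Il33 was graded by subset. Universal fibroblasts, which surround vessels, carried 490, 403, 535, 492, 251 and 304 CPM. Trophocytes carried 177, 169, 238, 240, 243 and 185 CPM in the same order. The universal gate was above the trophocyte gate in 6 of 6 libraries, with no overlap between the gates (log2 difference 0.94 ± 0.15, adjusted p = 0.00110). Lamina propria fibroblasts held 17.4 to 172 CPM (-1.90 ± 0.40 against trophocytes, adjusted p = 0.00535), and telocytes held 31.7, 29.2, 102, 84.8, 8.26 and 2.66 CPM (-3.48 ± 0.66, adjusted p = 0.00257). Both were below trophocytes in 6 of 6 libraries. In these 3 comparisons 18.4%, 46.4% and 33.5% of all genes tested were called, for universal, lamina propria and telocyte gates in that order. Of the 8 genes, 2 of 6 tested, 4 of 6 tested and 3 of 7 tested were called. The call of Crlf2 in telocytes against trophocytes (0.53 ± 0.16, adjusted p = 0.0282) was lost by DESeq2 (adjusted p = 0.0608), without doublet removal (0.0586), the filter on low counts (0.0909) or the library block (0.167), with a stricter gate (0.289) or fewer markers (0.0854) and without the proximal replicates 1 (0.0757) or 2 (0.0637), the distal replicate 1 (0.0560) or the cecum (0.131). Without the library block the calls of Il7 (adjusted p = 0.341) and Crlf2 (0.784) in lamina propria fibroblasts and of Il1rap in universal fibroblasts (0.0985) were lost. The call of Il7 was also lost after subtraction of free RNA (adjusted p = 0.0676), although its log2 difference went from 0.83 to 1.92.

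Fibroblast Il33 did not differ detectably between large bowel and small intestine when the gate was taken whole (log2 difference -0.58 ± 0.33, adjusted p = 0.210), although it was called without the cecum (-1.26, adjusted p = 0.0304), when the large intestine alone stood for the large bowel. Within trophocytes the values overlapped (0.13 ± 0.21, adjusted p = 0.681), as they did within lamina propria fibroblasts (1.09 ± 0.60, adjusted p = 0.210). Universal fibroblasts held 277 ± 37.8 CPM in the large bowel and 480 ± 55.3 in the small intestine without overlap, which was not called (-0.71 ± 0.18, adjusted p = 0.0878). Within telocytes Il33 was lower in the large bowel, at 8.26 and 2.66 CPM against 29.2 to 102 (-3.55 ± 0.64, adjusted p = 0.00725). The small intestinal values rest on 31 to 93 cells and 13 to 34 UMIs a library and lie below free RNA, which held 171 to 247 CPM of Il33 in those libraries and 156 and 82.0 in the large bowel. The makeup of the fibroblast gate differed by region. Trophocytes made up 40.9% to 65.0% of the fibroblast gate in the small intestine but 9.12% and 5.73% in cecum and large intestine. The share of the telocyte gate was 0.236% to 0.826% in small intestinal libraries, 5.22% in the cecum and 31.8% for the large intestine. It held 29, 39, 23 and 14 of the 184, 381, 77 and 249 Foxl1 UMIs of small intestinal fibroblasts. In the cecum it held 430 of 841, and in the large intestine 2777 of 3219. Most small intestinal Foxl1 UMIs thus lay outside the gate, so these are shares of the gate and not of all Foxl1+ cells. In the telocyte gate the summed blood endothelial list was 269 to 460 CPM in the small intestine and 16.0 to 63.2 in the large bowel. The pericyte list was lower there too (422 to 836 against 116 to 228), as was smooth muscle (484 to 752 against 354 to 374). So were the trophocyte list (122 to 321 against 98.0 to 106) and the telocyte list itself (9679 to 10760 against 6725 to 7385). The universal list was higher (120 to 166 against 365 to 468). The part of these lists in the Il33 difference was not tested.

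Il1rl1, the ST2 receptor, had the opposite distribution among fibroblasts. Telocytes carried 238, 357, 891, 394, 425 and 140 CPM. Trophocytes carried 0.0726 to 1.07 CPM, universal fibroblasts 0 to 0.894 and lamina propria fibroblasts 0 to 3.49. The telocyte gate was above the trophocyte gate in 6 of 6 libraries, with a log2 difference of 10.29 ± 0.60 (adjusted p = 1.44e-06), and no other gate overlapped it. Telocytes, 4052 of 71280 fibroblasts, held between 71.4% and 90.4% of the Il1rl1 UMIs of the fibroblast gate in each library. After thinning to 2500 UMIs, 634 of 4052 telocytes carried an Il1rl1 UMI and 45 an Il33 UMI, and none carried both, at a number of Il33+ cells too small to set a tight limit. Among telocytes without Il33, 15.8% carried Il1rl1, between 10.4% and 57.1% by library. Il1rap was found in 72 of the 634 telocytes with Il1rl1 and in 449 of all 4052.

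Il1rl1 in fibroblasts was higher in the large bowel, where the telocyte gate held a larger share of the fibroblast gate. Among the small intestinal libraries, with shares of 0.236% to 0.826%, the order of the telocyte shares was not that of the Il1rl1 levels. The part of the telocyte share in the regional difference was not tested. The whole fibroblast gate held 2.32, 1.78, 2.42 and 1.26 CPM in the small intestine, 24.9 for the cecum and 50.5 for the large intestine (log2 difference 4.29 ± 0.34, adjusted p = 0.000756), with no overlap. Each of these values lay below the free RNA of its own library. That free RNA held 21.2, 6.13, 4.12, 2.64, 35.7 and 54.8 CPM of Il1rl1 and was also higher in the large bowel. The part of free RNA in this difference was not tested. Within the telocyte gate the direction turned, and the groups overlapped (283 ± 201 CPM in the large bowel against 470 ± 289 in the small intestine, -0.64 ± 0.54, adjusted p = 0.428). With the telocyte gate taken out, the rest of the fibroblast gate held 0.155 to 0.668 CPM in the small intestine, 3.58 for the cecum and 7.21 for the large intestine. These values too lay below the free RNA of their own libraries. Within lamina propria fibroblasts Il1rl1 was higher in the large bowel at low levels (1.90 and 3.49 CPM against 0 to 0.616, log2 difference 3.09 ± 0.91, adjusted p = 0.0402). Those large bowel levels rest on 9 cecal UMIs and 1 large intestinal UMI. They lie below the free RNA of their own libraries, which held 35.7 and 54.8 CPM of Il1rl1. Within trophocytes the difference was 2.02 ± 0.83 (adjusted p = 0.117).

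**Figure D3:**
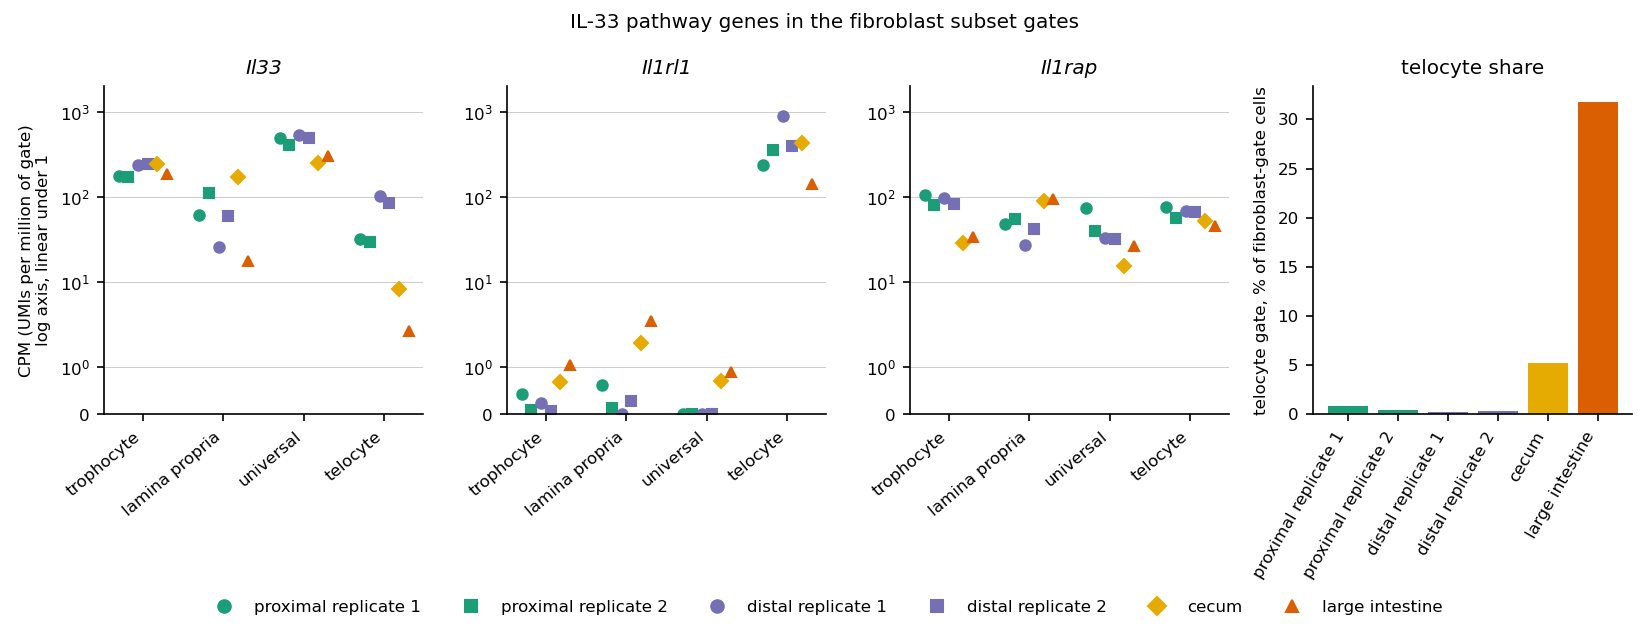
Il33, Il1rl1 and Il1rap in CPM (vertical axes, logarithmic above 1 and linear below) in 4 fibroblast subset gates, 1 point per library, and the share of the fibroblast gate in the telocyte gate (bars, percent). Telocytes held 140 to 891 CPM of Il1rl1 against at most 3.49 in the other subsets and little Il33. The share of the telocyte gate was under 1% in the small intestine and 31.8% in the large intestine. That gate left out most Foxl1 UMIs of small intestinal fibroblasts.

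Il1rap, the shared accessory chain, was found at its highest level in enteric glia, at 497, 530 and 451 CPM in the 3 libraries with at least 20 glial cells (493 ± 39.9). No other gate overlapped that range. The fibroblast gate followed with 97.1, 75.2, 90.8, 70.9, 48.1 and 44.7 CPM, and the LEC gate held 13.4 to 19.4 CPM (log2 difference of LECs to fibroblasts -2.20 ± 0.21, adjusted p = 2.50e-05, lower in 6 of 6 libraries). In fibroblasts Il1rap was lower in the large bowel (-0.80 ± 0.19, adjusted p = 0.0192). That call was lost without the proximal replicate 1 (-0.70, adjusted p = 0.0524). It was also lost without the cecum (-0.90) or the large intestine (-0.71), where the large bowel is 1 library. The direction differed among subsets. Trophocytes fell from 80.6 to 104 CPM in the small intestine to 28.8 and 33.8 in the large bowel (-1.47 ± 0.17, adjusted p = 0.00215), whereas lamina propria fibroblasts rose from 27.5 to 55.5 CPM to 88.5 and 94.2 (1.24 ± 0.25, adjusted p = 0.0106). The large bowel trophocyte values lay below the free RNA of their own libraries, which held 36.7 and 41.1 CPM of Il1rap. The large intestinal value of lamina propria fibroblasts rests on 36 cells and 27 UMIs. In the small intestine that gate held 47.3, 55.5, 27.5 and 41.6 CPM, against 59.7, 43.2, 78.7 and 51.2 in free RNA. Telocytes (-0.39 ± 0.20, adjusted p = 0.204) and universal fibroblasts (-0.97 ± 0.34, adjusted p = 0.174) were not called. In the trophocyte gate the summed pericyte list was 469 to 1130 CPM in the small intestine and 92.6 to 125 in the large bowel, and the lamina propria list 1762 to 4977 and 923 to 956. The universal list was higher in the large bowel, at 585 to 647 CPM against 336 to 394. The part of these lists in the differences of Il1rap, Il7 and Crlf2 within trophocytes was not tested.

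Il7 had its highest level in lymphatic endothelium. The LEC gate held 142, 156, 155, 171, 210 and 202 CPM. The fibroblast gate held 3.81, 5.39, 3.90, 8.85, 7.96 and 15.1 CPM, and the next gate in the order, lamina propria fibroblasts, 10.3 ± 3.20 (n = 6). LECs were above fibroblasts in 6 of 6 libraries without overlap (log2 difference 4.70 ± 0.23, adjusted p = 4.85e-07). Blood endothelium, at 2.20 ± 1.81 CPM, was far below lymphatic endothelium (-6.21 ± 0.23, adjusted p = 3.71e-08). LECs supplied 78.5% of the Il7 UMIs of gated cells, and between 23.3% and 91.7% in single libraries. In the large bowel the fibroblast gate held more Il7 UMIs than the LEC gate. There were 705 against 270 in the cecum and 1516 against 468 in the large intestine. Below the LEC gate each gate overlapped the next, and the fibroblast values lay within or below the free RNA range of 10.0 to 43.3 CPM.

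In LECs thinned to 2500 UMIs, 4740 of 15461 cells carried Il7 and 9186 carried Il33. Il7 was found in 31.7% of cells with Il33 and in 29.1% of cells without it, and 2913 cells carried both. Il7 in LECs was higher in both large bowel libraries than in any small intestinal one, but the difference was small and not called (0.37 ± 0.12, adjusted p = 0.0522). It was called by DESeq2 (0.38, adjusted p = 0.0193), without the distal replicate 2 (0.44, adjusted p = 0.0495), without doublet removal (adjusted p = 0.0280), with cells of several hashtags removed (0.0445), with fewer markers (0.0429) and with a stricter gate (0.0468). In Ccl21a-high cells Il7 stood at 153, 122, 130 and 172 CPM in the small intestine against 227 and 212 (log2 difference 0.64, adjusted p = 0.0118), while in Ccl21a-low cells it stood at 141, 160, 163 and 171 against 136 and 158 (-0.21, adjusted p = 0.496). Whether these differences differ from each other was not tested. In the fibroblast gate the difference of Il7 between regions was 1.12 ± 0.36 and lay at the threshold (adjusted p = 0.0506). It was called by limma-voom (1.16, adjusted p = 0.0415) and DESeq2 (1.13, adjusted p = 0.0103), after subtraction of free RNA (1.86, adjusted p = 0.0189), among libraries with one hashtag set (1.56, adjusted p = 0.0425), without the cecum (1.49, adjusted p = 0.0465) and without the distal replicate 2 (1.42, adjusted p = 0.0209). With no filter on low counts, fewer markers, a stricter gate or a stricter cell filter it was 1.11 to 1.14 and called, with adjusted p values of 0.0419, 0.0484, 0.0457 and 0.0452. Within trophocytes it was called (10.2 ± 2.71 against 3.92 ± 1.59 CPM, 1.46 ± 0.34, adjusted p = 0.0227).

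In the comparison of LECs with fibroblasts, 67.5% of all genes tested were called, and of the 8 genes Il7 and Crlf2 were higher, Il1rl1, Il1rap and Il18 lower, and 3 were not called. The Il1rl1 call was lost without doublet removal (-1.37, adjusted p = 0.0510). Their median log2 difference was 0.17, against -0.05 over all genes. In that of blood endothelium with LECs 57.9% were called, and of the 5 genes tested Il15 and Il1rap were higher, Il33 and Il7 lower and Crlf2 not called.

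The receptor for IL-7 was found where the sort held lymphocytes. Il7r in the T/ILC gate stood at 912, 1130, 1031 and 1089 CPM in the small intestinal libraries. The 10 gated cells of the cecum gave 487 CPM (counting interval 288 to 769) and the 16 of the large intestine 372 (251 to 531), and these libraries were too thin to be tested. The myeloid gate held 29.1 ± 18.5 CPM (n = 5), the B or plasma cell gate 4.52 ± 6.04 (n = 6) and the fibroblast gate 0.349 ± 0.223 (n = 6). Of the Il7r UMIs of gated cells 80.2% came from the T/ILC gate, which held 0.395% of the cells. An Il7r UMI was found in 283 of 360 T/ILC cells (78.6%, exact 95% interval 74.0% to 82.7%), against 1.44% ± 1.76 of B or plasma cells, at medians of 4987 and 11643 UMIs. Telocytes and universal fibroblasts had no Il7r UMI. For the 3196 telocytes of the large intestine 0 UMIs allow a level of up to 0.0916 CPM.

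The LEC gate, with the highest level of Il7, held no more than 0.847 CPM of Il7r. It did carry the common gamma chain Il2rg at 83.9 ± 19.2 CPM (n = 6). Blood endothelium held 51.3 ± 21.4 CPM of Il2rg, T/ILC cells 173 ± 64.6 and fibroblasts 1.33. In the fibroblast gate Il7r was called lower in the large bowel (0.105 ± 0.107 against 0.472 ± 0.139 CPM, -2.11 ± 0.65, adjusted p = 0.0451). Those levels lie at or below free RNA, and the call was lost on leaving out any 1 library except the cecum, with adjusted p values of 0.0595 to 0.0995 without a small intestinal library and 0.109 without the large intestine. It was also lost with cells of several hashtags removed (adjusted p = 0.0679), with a stricter cell filter (0.0616) and among libraries with one hashtag set (0.137). Trophocytes of both large bowel libraries had no Il7r UMI, which allows up to 0.409 CPM in the cecum and 0.536 CPM in the large intestine.

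All 8 genes were called between the T/ILC and fibroblast gates in the 4 libraries tested, where 53.8% of all genes were called. In this fit the spread was pooled fully over genes (infinite prior degrees of freedom), so a gene's own spread between libraries carried no weight. The Il7 and Il18 levels of the T/ILC gate rest on 1 UMI each. Il7r (log2 difference 10.90 ± 0.20), Il1rl1 (2.94 ± 0.45) and Crlf2 (1.35 ± 0.29) were higher, and Il33, Il1rap, Il7, Il15 and Il18 were lower, with log2 differences between -2.52 (Il1rap) and -5.27 (Il33). Il1rl1 stood at 14.1, 15.0, 19.8 and 21.2 CPM in the T/ILC gate, above the fibroblast gate of the same libraries (1.26 to 2.42). These rest on 6 to 11 UMIs a library. Free RNA held 21.2, 6.13, 4.12 and 2.64 CPM, so the proximal replicate 1 was below its own background and the other 3 libraries were above theirs. At least 1 UMI of Il1rl1 was found in 12 of 360 cells. Of the 360 cells, 337 had at least 2 T cell receptor markers and 23 had 0 or 1. By marker counts, 13 cells of the T/ILC gate had at least 3 ILC2 markers, and 5 of them carried Il1rl1, 10 carried Il17rb, the IL-25 receptor chain, and all 13 Il7r. Of these 13 cells, 11 also had at least 2 T cell receptor markers, among them all 5 with Il1rl1, so the count does not separate ILC2s from T cells with the same markers. Of the 347 other cells 7 carried Il1rl1. Among 33 cells with at least 3 markers of group 3 innate lymphoid cells, of which 27 had at least 2 T cell receptor markers and are likewise not separated from T cells, 27 carried Il7r and none Il1rl1, which allows up to 10.6% of cells with a UMI by the exact 95% interval and sets no limit on cells that express the gene. None of the 360 cells carried Il1rl1 and Il1rap together.

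**Figure D4:**
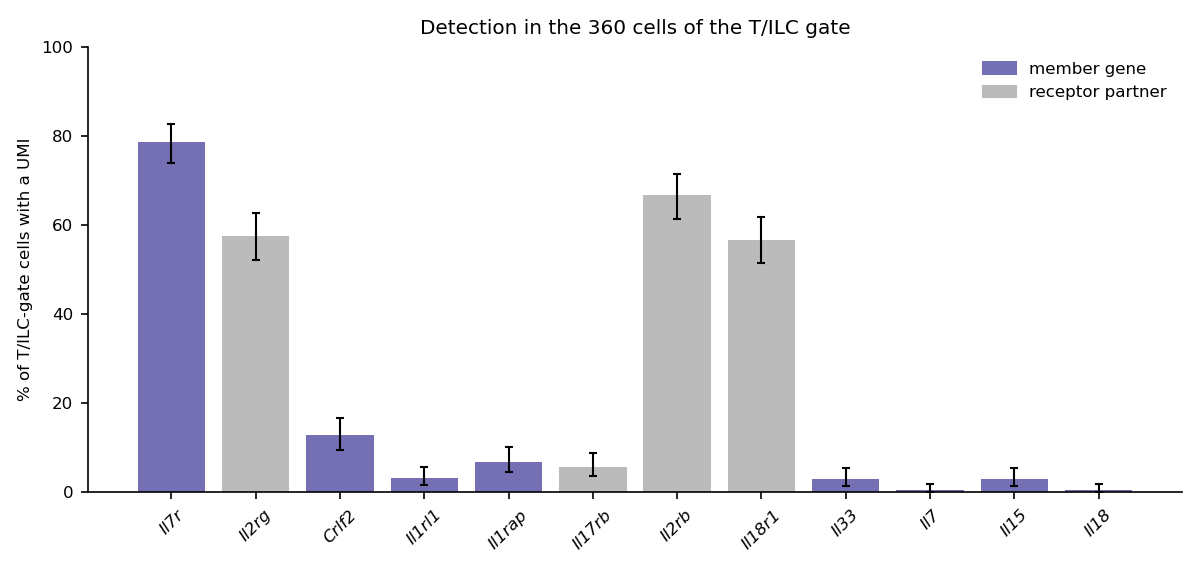
Share of the 360 T/ILC-gate cells (vertical axis, percent) with at least 1 UMI of each gene, with exact 95% binomial intervals, for the 8 genes and for receptor partners. Il7r was found in 78.6% of cells, Crlf2 in 12.8% and Il1rl1 in 3.33%, and the cytokine genes in at most 3.06%.

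The summed fibroblast list had a median of 599 CPM in T/ILC cells against 26122 in fibroblasts, and its source was not tested. The T/ILC gate also had the highest level of 3 receptor partners of IL-15 and IL-18. Il2rb, the shared IL-2 and IL-15 receptor chain, stood at 296 ± 70.6 CPM (n = 4), Il18r1 at 590 ± 105 and Il18rap at 279 ± 81.6. Of the 27 genes of the wider pathway list, 24 could be tested against fibroblasts, and 17 were higher and 4 lower in T/ILC cells, with a median log2 difference of 1.88 against -0.49 over all genes.

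Crlf2, the TSLP receptor chain, was spread over gates. Its order began with the myeloid gate (49.2 ± 23.5 CPM, n = 5), followed by LECs (37.8 ± 8.74, n = 6), blood endothelium (35.3 ± 9.86, n = 5), T/ILC cells (29.8 ± 10.5, n = 4) and B or plasma cells (28.9 ± 7.18, n = 6), and every neighbor in the order overlapped. A Crlf2 UMI was found in 12.8% of T/ILC cells (9.51% to 16.7%), 22.4% ± 3.39 of B or plasma cells and 11.7% ± 6.28 of fibroblasts, which differ in depth (medians of 4987, 11643 and 8222 UMIs). With every cell thinned to 2500 UMIs the share was 4.62% to 8.11% of T/ILC cells and 1.78% to 3.00% of fibroblasts in the same 4 libraries, without overlap. The T/ILC level of Crlf2, 29.8 CPM, compares with 14.1 to 18.5 CPM in the free RNA of those libraries. Il7r was found in 30 of the 46 T/ILC cells with Crlf2 (65.2%) and in 253 of the 314 without it (80.6%), and after thinning in 50.0% and 75.0%, and no test was run. LECs were above fibroblasts in 6 of 6 libraries (1.56 ± 0.21, adjusted p = 2.46e-04).

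In fibroblasts Crlf2 was higher in the large bowel. It stood at 8.12, 9.06, 12.6 and 9.07 CPM in the small intestine, 21.1 for the cecum and 28.6 for the large intestine (1.39 ± 0.22, adjusted p = 0.00568), without overlap. Among the 4 libraries that shared a hashtag set the difference was 1.24 and not called (adjusted p = 0.0527). Each fibroblast value lay below the free RNA of its own library, which held 14.2, 18.5, 17.9, 14.1, 23.2 and 30.2 CPM of Crlf2 and was also higher in the large bowel. The call was kept after subtraction of free RNA. That step took out only 10% of the UMIs of a gate along the free RNA profile. The part of any larger background in the call was not tested. The difference was called within trophocytes (1.45 ± 0.23, adjusted p = 0.00633) and telocytes (1.17 ± 0.27, adjusted p = 0.0220). It was not called within lamina propria fibroblasts (1.01 ± 0.37, adjusted p = 0.0735) or universal fibroblasts (0.76 ± 0.30, adjusted p = 0.216). In LECs the values of the 2 regions overlapped (0.25 ± 0.25, adjusted p = 0.506).

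Il15 had its highest level in blood endothelium, at 87.6, 77.3, 74.1 and 109 CPM in the small intestinal libraries and 87.9 in the large intestine, above LECs in 5 of 5 libraries (1.20 ± 0.12, adjusted p = 3.37e-05). Lamina propria fibroblasts came next (63.5 ± 20.3 CPM, n = 6) and were above trophocytes in 6 of 6 libraries (0.58 ± 0.09, adjusted p = 0.00118). Myeloid cells held 52.8 ± 23.6 CPM, fibroblasts 41.2 ± 9.27, LECs 36.3 ± 13.4 and T/ILC cells 6.22 ± 2.63, and neighbors down to the pericyte gate overlapped. Il15ra, the chain that presents IL-15, stood at 82.9 ± 50.7 CPM in pericytes (n = 5), 40.4 ± 12.7 in LECs and 21.9 ± 3.54 in fibroblasts.

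Il18 was low in stroma and higher in myeloid cells. The myeloid gate held 27.1, 29.3, 31.9 and 59.9 CPM in the small intestine and 155 in the large intestine, and 60.5 ± 54.2 over the 5 libraries, against 8.72 ± 1.75 in fibroblasts (2.52 ± 0.36, adjusted p = 5.09e-05). The epithelial gate reached 20 cells only in the large intestine, where it held 135 CPM. LECs held 0.802 ± 0.907 CPM and blood endothelium 0.148 ± 0.331. LECs were below fibroblasts in 6 of 6 libraries (-3.84 ± 0.35, adjusted p = 1.96e-05). Il18 was called higher in the large bowel within lamina propria fibroblasts (13.7 and 27.9 CPM against 7.43 to 9.03, 1.22 ± 0.27, adjusted p = 0.0142). The large intestine gave 36 cells and 8 Il18 UMIs to that gate. Free RNA held 15.8 CPM of Il18 in the cecum, above the value of that gate, and 14.5 in the large intestine. In the small intestine it held 5.97 to 13.0 CPM. Il18bp, the soluble inhibitor, stood at 155 ± 162 CPM in the myeloid gate and 32.8 ± 5.05 in LECs.

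Myeloid cells and the mural gates filled out the order. Against fibroblasts, 50.9% of genes were called for the myeloid gate, and Il7r (6.34 ± 0.61), Crlf2 (1.88 ± 0.22) and Il18 were higher and Il33 and Il1rap lower. In the pericyte gate 29.4% of genes were called, and Il33, Il1rl1, Il15 and Il18 were lower. In the smooth muscle gate 39.3% were called, and Il33, Il1rap, Il7, Crlf2, Il15 and Il18 were lower. No gene of the 8 was called higher in either mural gate. The Il15 call in pericytes (-0.79 ± 0.26, adjusted p = 0.0329) was lost without the proximal replicates 1 or 2, the distal replicate 2 or the large intestine, with adjusted p values of 0.0840, 0.0965, 0.114 and 0.0927, and by limma-voom (0.0903), by DESeq2 (0.111) and with a stricter cell filter (0.0906). The Il1rl1 call in pericytes was lost by limma-voom (-1.92, adjusted p = 0.0774) and without the library block (adjusted p = 0.109). In smooth muscle the Il7 log2 difference was -1.13 in the main fit. It ran from -0.79 without the distal replicate 2 to -1.85 after subtraction of free RNA in the fits that lost the call. The Il7 call was lost without the proximal replicate 1 (adjusted p = 0.0569), the distal replicate 2 (0.125) or the large intestine (0.0554). It was also lost by limma-voom (0.0919), without the library block (0.0728), with a stricter cell filter (0.0506) and after subtraction of free RNA (0.0640). That of Il18 was lost without the proximal replicate 2 (adjusted p = 0.0524) or the distal replicate 2 (0.0820) and with a stricter cell filter (0.0502), and that of Crlf2 without the library block (0.202).

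Between large bowel and small intestine, 30.6% of all genes were called in the fibroblast gate, 19.9% within trophocytes, 24.1% within lamina propria fibroblasts, 14.5% within telocytes and 1.81% within universal fibroblasts. Of the 8 genes 4, 4, 3, 2 and 0 were called in these gates, of 8, 8, 7, 5 and 6 tested. The 27 genes of the pathway list showed 4 higher and 3 lower of 26 tested in the fibroblast gate. Il1r1, the IL-1 receptor that shares Il1rap, was lower in the large bowel in fibroblasts (160 against 274 CPM, -0.73, adjusted p = 0.0105), and in LECs it was 41.9 against 465 CPM (-3.54, adjusted p = 3.16e-05). In LECs, where 21.3% of all genes tested were called, Il17ra and Il2rg were higher and Il15ra, Il1r1 and Irak1 lower of 18 tested. Il18r1 in telocytes was lower in the large bowel (6.51 against 91.1 CPM, -4.27, adjusted p = 0.0402), the 1 call of 11 pathway genes tested there.

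**Figure D5:**
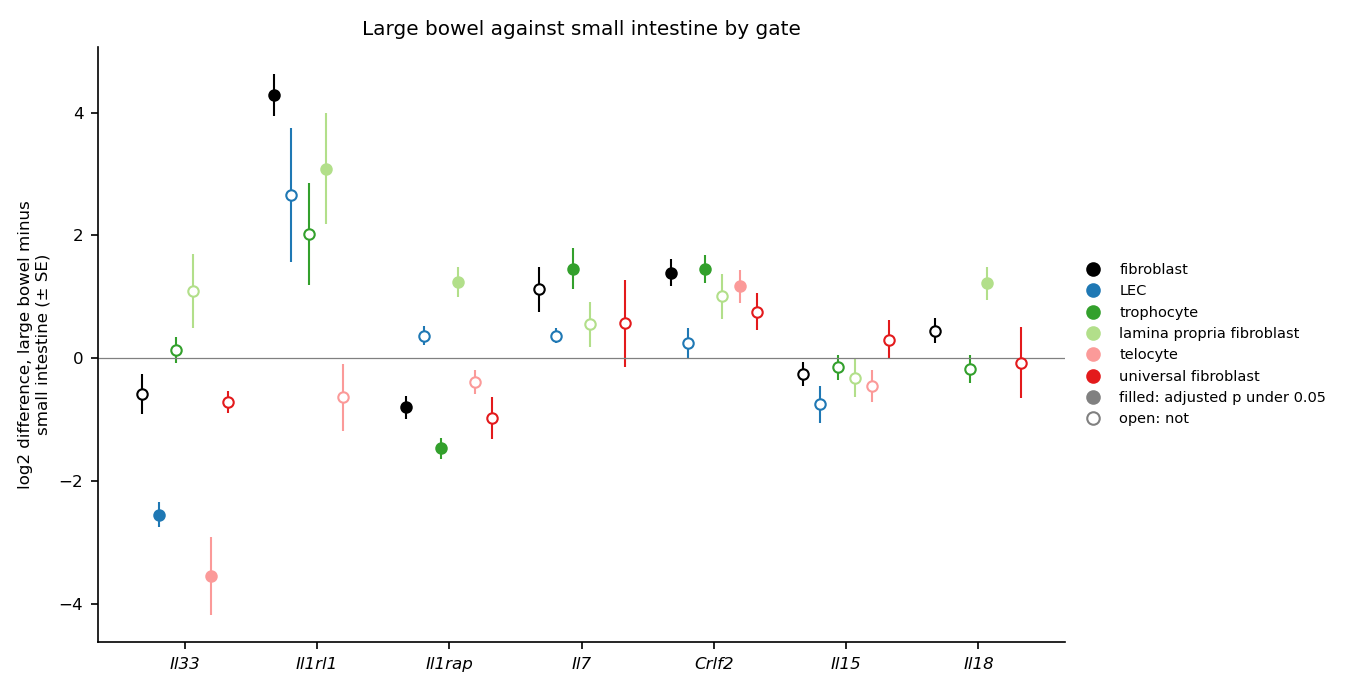
Log2 difference of large bowel (2 libraries) minus small intestine (4 libraries) with its standard error for 7 genes in the fibroblast gate, the LEC gate and 4 fibroblast subset gates, filled where the adjusted p was under 0.05. Il33 was lower in LECs (-2.55) and telocytes (-3.55) but not in trophocytes (0.13), Crlf2 was called in fibroblasts, trophocytes and telocytes, and Il7r was left out because it was listed at 0 in most large bowel gates.

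Within the small intestine no gene of the set was called between distal and proximal libraries in the fit without a replicate block. In fibroblasts 2 of 19192 genes were called (0.0104%), with 671 at an unadjusted p under 0.05, and in LECs 0 of 15551 (0.00%), with 566 at an unadjusted p under 0.05. DESeq2 called 141 and 30 genes and limma-voom none. With replicate number as a block 344 and 244 genes were called, among them Il1rl1 in LECs, at 0.239 ± 0.191 CPM in the distal and 0.643 ± 0.397 in the proximal libraries (log2 difference -2.41, adjusted p = 0.0398). Those Il1rl1 levels lie below free RNA, which held 21.2 and 6.13 CPM in the proximal and 4.12 and 2.64 in the distal libraries. Replicate numbers coincide with the hashtag sets. Il33 in fibroblasts was higher in both distal libraries (245 and 229 CPM against 171 and 180, log2 difference 0.48 ± 0.16, unadjusted p = 0.0244), which did not pass the adjustment (adjusted p = 1.00).

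The genes most like each of the 8 across 13 gates, by Pearson's correlation of mean log2(CPM + 1), are given as a description, since gates share libraries and depth. The most like genes were Zfpm2 (0.93), G630016G05Rik (0.93) and Rspo3 (0.92) for Il33, and Hoxd9 (0.96), Gm35340 (0.90) and Fgf12 (0.89) for Il7. For Il1rl1 they were Lhfpl3 (0.89), Adra2c (0.88) and Adrb1 (0.87), and for Il7r the T cell genes Cd6, Trbc2 and Slfn1 (0.99 each). Trbc2 is itself a marker that defines the T/ILC gate, so its likeness is no separate result. Il1rap was most like Gm20319 (0.95), the gene on its other strand, then Chadl and C1ql1 (0.94 each). Crlf2 was most like Sting1 (0.92), Il15 like Baz2b and Lifr (0.90 each) and Il18 like Zbtb8os (0.94).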

How the data were processed

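Single-cell 3′ RNA libraries of sorted tdTomato+ lamina propria cells were analysed, 2 each from the proximal and distal small intestine and 1 each from the cecum and large intestine. The authors deposited raw UMI counts of every barcode, made with Cell Ranger (version 8.1.0 in the submitters' notes, 8.0.1 in the matrix header) against mm39 with tdTomato added. Whether strand was used in counting is not given in the sources used here. The 8 genes and all lists were chosen with earlier results of these data known, and the gate limits were set after the cells were seen. A cell was kept if it had between 2500 and 40000 UMIs, between 1000 and 7500 genes and a mitochondrial share below 10%. Doublets predicted by Scrublet were removed at 0.8% per 1000 cells. Each cell was gated where at least 3 markers of a class were found and its marker score led the next class by 0.2. UMIs were summed per library and gate (at least 20 cells) and tested with edgeR's quasi-likelihood test (4.0.16, R 4.3.3, TMM scaling, minimum count 10, Benjamini-Hochberg adjusted p under 0.05), with library as a block between gates and none between regions. Levels are UMIs per 1000000 UMIs. Exact 95% intervals cover counting error only, and the limit for 0 UMIs is 3 counts. The text names all 8 genes, and other genes from the 27-gene pathway list or by the 3 highest correlations across gates. Alternatives were limma-voom (3.58.1), DESeq2 (1.42.0), other filters and gates, subtraction of free RNA (10% of each sum) and leaving out each library. The edgeR step was tested on simulated data.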

Additional observations from a re-analysis of the deposited data

Results flagged for a closer look

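For 3 of the 8 genes, the difference between the LEC and fibroblast gates itself differed between large bowel and small intestine (edgeR, interaction of gate and region with library as a block), where 10.2% of 20001 genes tested were called. The LEC minus fibroblast difference of Il33 was lower in the large bowel (-1.92 ± 0.21 on the log2 scale, SE, adjusted p = 0.00126). For Crlf2 it was also lower (-1.22 ± 0.14, adjusted p = 0.00160), and for Il1rap it was higher (1.12 ± 0.25, adjusted p = 0.0262). The cecum and the large intestine are 1 library each, so the large bowel is represented by 2 libraries.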

How the results depend on the processing

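The log2 differences followed here are those called in the main fit and 4 that were not, so only those 4 could newly pass the threshold. Of 792 values of 50 log2 differences of the 8 genes under alternatives, 712 kept their direction and their side of the threshold, 52 fell short of it, 23 passed it and 5 turned direction. Those that turned were regional differences: Il33 in fibroblasts, 0.13 within trophocytes and 1.09 within lamina propria fibroblasts, Il1rl1, -0.64 within telocytes, Il1rap, 1.24 within lamina propria fibroblasts, and Il7 in LECs, -0.21 in Ccl21a-low cells. The number of the 8 genes called fell in pericytes from 4 to 2 with limma-voom, and without the library block from 4 to 2 in lamina propria and from 2 to 1 in universal fibroblasts. Between regions it was 4 in the fibroblast gate, 2 within telocytes, 0 within universal fibroblasts and 2 to 5 on leaving out 1 library, with 2 without the proximal replicate 1 or the large intestine. In LECs it was 1, rising to 2 with DESeq2, with cells of several hashtags removed, with fewer markers per list, with a stricter gate or in Ccl21a-high cells, and to 3 with no filter on low counts or no doublet removal, and was 1 to 2 on leaving out 1 library. The cause was not tested. Replicate numbers gave 2 pairs in the small intestine, with correlations of same-numbered deviations of 0.35 in fibroblasts and 0.19 in LECs, and a replicate block called 1 of the 8 genes (Il1rl1) between distal and proximal LECs and 0 in fibroblasts. That block raised the calls over all genes from 2 to 344 in fibroblasts and from 0 to 244 in LECs. Over all genes, the regional calls fell from 6051 to 1707 in fibroblasts and from 3001 to 1418 in LECs among libraries with one hashtag set, and to 3193 without the proximal replicate 1 and 1204 without the cecum, respectively. Against trophocytes, calls without the library block fell from 6827 to 4071 for lamina propria and from 2393 to 883 for universal fibroblasts, and with a stricter gate from 4355 to 2731 for telocytes. The alternatives with one hashtag set, within telocytes or universal fibroblasts and by Ccl21a were chosen after seeing the data.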

Other observations

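The chains of the IL-18 receptor were found in telocytes of some libraries. Il18r1 stood at 62.9 ± 64.1 CPM (SD, n = 6, range 0.305 to 148) and Il18rap at 12.3 ± 13.9 CPM (range 0 to 39.7), against 0.589 ± 0.444 and 0.935 ± 1.29 CPM in the whole fibroblast gate. After thinning to 2500 UMIs, 22 of the 39 telocytes with Il18r1 also carried Il1rl1. Il18r1 was found in a larger share of telocytes with Il1rl1 than of those without it in 6 of 6 libraries, from 20.8% against 10.1% in the proximal replicate 1 to 0.608% against 0.0698% in the large intestine. Each library held only 2 to 12 telocytes with Il18r1, and no test was run. Il18r1 starts at 40504712 of chromosome 1, just past the end of Il1rl1 at 40504575 and on the same strand. The part of this closeness in the shared detection was not tested.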
